A study of Homo sapiens with 8 samples.

Results

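The exons described here were included in nearly every transcript of both untreated breast cell lines, MCF10A and HMLE TWIST. They were chosen by their measured values in the control libraries: an exon-skipping event, defined by an exon and its 2 neighbours, had to be listed for both lines, to have at least 100 junction reads in each of the 4 control libraries, and to reach an inclusion level of at least 0.98 in all 4. The inclusion level is the share of transcripts that carry the exon, computed from reads across its splice junctions after each count is divided by the effective length of its form. Of 56675 events listed for both lines, 35756 had enough control reads and 20937 met the rule. They cover 18089 exons of 5986 genes, out of 43915 exons of 10577 genes. Because control levels chose the exons, a rise with emetine could be at most 0.02, and the comparisons of emetine with control are given as descriptions.

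The study measured polyadenylated RNA in 8 libraries, with 2 replicates in each of 4 groups: MCF10A with DMSO, MCF10A with 10 µM emetine, HMLE TWIST with DMSO, and HMLE TWIST with 10 µM emetine, all collected after 24 hours. MCF10A is a non-tumorigenic line from breast epithelium. HMLE TWIST cells are immortalised breast epithelial cells in which a retroviral construct, pBabe-TWIST, drives TWIST, a transcription factor known for turning epithelial into mesenchymal cells. DMSO is the solvent, and emetine is a plant alkaloid that blocks protein synthesis. The design calls the replicates biological, without saying how far they were grown apart, so p-values concern the spread between these libraries. In the main model that spread is shared by all events and is not the event's own.

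As background, an exon is recognised through its splice sites and the sequences around them, and a constitutive exon is one that the cell joins into almost every transcript of its gene. When an exon whose length is not a multiple of 3 is left out, the reading frame shifts, and translation usually meets a stop codon early. Transcripts with such early stops are commonly removed by nonsense-mediated decay, a surveillance pathway that needs ongoing translation. A level near 1 in steady-state RNA can therefore be measured both where an exon is hardly ever skipped and where skipped transcripts are short-lived, and the part of decay in the differences below was not tested.

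The sequences of 7 exons are given as examples. Among the 10 that fell furthest in both lines, they are those matched to an exon that is coding throughout. Sequences were read from GENCODE 29 transcripts, 5′ to 3′ on the transcript strand, with the last 3 bases of the exon, which form part of the 5′ splice site, in capitals. Coordinates are those of the deposited tables (GRCh37). The exons lie in SNX4 (chr3:125208252-125208307, minus strand), GALNT7 (chr4:174216915-174216994, plus), SESTD1 (chr2:179988442-179988556, minus), FLII (chr17:18149058-18149164, minus), CPNE1 (chr20:34218663-34218717, minus), COASY (chr17:40716727-40716916, plus) and ATXN2L (chr16:28843817-28843888, plus).
SNX4 exon: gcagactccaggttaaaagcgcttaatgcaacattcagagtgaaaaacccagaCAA
GALNT7 exon: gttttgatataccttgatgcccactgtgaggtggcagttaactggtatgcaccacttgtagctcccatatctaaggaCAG
SESTD1 exon: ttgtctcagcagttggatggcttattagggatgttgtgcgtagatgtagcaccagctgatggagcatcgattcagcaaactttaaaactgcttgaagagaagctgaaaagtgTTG
FLII exon: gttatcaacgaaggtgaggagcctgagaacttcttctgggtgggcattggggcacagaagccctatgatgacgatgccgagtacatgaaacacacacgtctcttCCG
CPNE1 exon: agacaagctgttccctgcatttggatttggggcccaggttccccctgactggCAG
COASY exon: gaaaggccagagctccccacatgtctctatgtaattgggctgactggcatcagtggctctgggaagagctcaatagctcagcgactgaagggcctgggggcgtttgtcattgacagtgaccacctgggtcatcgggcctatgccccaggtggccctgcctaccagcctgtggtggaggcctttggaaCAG
ATXN2L exon: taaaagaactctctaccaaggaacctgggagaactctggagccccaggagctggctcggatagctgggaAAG
The lengths of the first 6, 56, 80, 115, 107, 55 and 190 bases, are not multiples of 3. Without them the reading frame of the next exon changes, and the following stretches run from the start of that exon to the first stop codon in the new frame, in capitals.
SNX4 following exon: gagatttacTGA
GALNT7 following exon: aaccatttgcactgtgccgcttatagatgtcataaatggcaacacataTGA
SESTD1 following exon: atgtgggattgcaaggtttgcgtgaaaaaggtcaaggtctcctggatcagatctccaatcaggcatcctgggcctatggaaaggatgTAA
FLII following exon: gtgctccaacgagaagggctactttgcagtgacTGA
CPNE1 following exon: gtctcgcatgaatttgcctTGA
COASY following exon: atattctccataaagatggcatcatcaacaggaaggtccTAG
Translation of the skipped transcript would thus end 12 bases into the next exon in SNX4, 22 in CPNE1, 36 in FLII, 42 in COASY, 51 in GALNT7 and 90 in SESTD1. The exon of ATXN2L has 72 bases, a multiple of 3, and the frame is kept without it. For comparison, the exons of MT2A, a metallothionein (chr16:56642904-56642969, plus), and EEF1A1, the elongation factor that brings tRNA to the ribosome (chr6:74229060-74229239, minus), had the most reads among those that kept their level in every library.
MT2A exon: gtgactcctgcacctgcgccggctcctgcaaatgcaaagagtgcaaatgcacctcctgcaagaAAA
EEF1A1 exon: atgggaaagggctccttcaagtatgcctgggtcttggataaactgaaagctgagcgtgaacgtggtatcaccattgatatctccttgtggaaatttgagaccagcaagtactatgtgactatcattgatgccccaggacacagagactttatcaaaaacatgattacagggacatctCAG
Both have lengths that are multiples of 3, at 66 and 180 bases. Each gene has near-identical copies elsewhere in the genome, so its reads could be split between them.

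The tables hold 82355 events for MCF10A and 98244 for HMLE TWIST, with 78412292 to 91259363 junction reads summed over events in a library. Among the near-constitutive events the median was 640 to 878 reads in a library, and 20 events had under 20 reads in some emetine library. Every event of either table had at least 1 skipping read over the 4 libraries of its line, so exons that are never skipped are not listed and shares are shares of listed events. The labelled cell types were checked through junction reads of marker genes. Reads of 8 epithelial markers came to 470973 and 515241 in the MCF10A controls against 8093 and 7772 in those of HMLE TWIST, where KRT5 and KRT17 were not listed and CDH1 had 2 and 0 reads. Reads of 8 mesenchymal markers came to 27634 and 30945 against 4042439 and 3764417. These sums run over the events listed for each line, which differ in number, so they do not measure fold differences in expression. VIM had 1 event in MCF10A and 18 in HMLE TWIST, FN1 had 5 and 50, and LAMB3 had 34 and 11. EPCAM and GRHL2 were listed in neither table, and reads of 3 endothelial markers were at 0 throughout. The 3 leukocyte markers had 1636 to 3413 reads in the MCF10A libraries, all of LCP1, and 1 to 35 in those of HMLE TWIST. With emetine, epithelial marker reads came to 3848657 and 3947584 in MCF10A, of which LAMB3 gave 3752154 and 3853682. KRT17 reads were also higher than in the controls, while reads of KRT5 (85159 and 80867, against 142764 and 145063), CDH1, ESRP1 and ESRP2 were lower. Summed mesenchymal marker reads with emetine were 7148 and 7697 in MCF10A and 2717437 and 2401769 in HMLE TWIST, below the controls of both lines. In HMLE TWIST, reads of VIM, FN1, SPARC, COL1A2 and PDGFRB were lower. ZEB2 reads were higher there, at 1736 and 1304 against 993 and 852, and also in MCF10A, at 40 and 21 against 10 and 2. CDH2 and ZEB1 reads in HMLE TWIST overlapped between control and emetine. The part of these shifts in the results below was not tested, and fewer cells of a type and less RNA per cell cannot be told apart.

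Emetine libraries held more skipping reads across these exons than control libraries in both lines. Per 1000 junction reads of the near-constitutive events, skipping reads numbered 0.672 and 0.693 in the MCF10A controls and 2.17 and 1.99 with emetine. In HMLE TWIST they numbered 0.963 and 0.98 in the controls and 3.97 and 3.88 with emetine. The replicates of a group lay close together and the groups did not overlap. Events without a single skipping read made up 60.6% and 57.2% of the MCF10A control libraries, against 34.7% and 35.4% with emetine. For HMLE TWIST these shares were 51.8% and 53.0%, then 26.4% and 28.8%. The rule capped skipping in the controls alone, and an event without control skipping reads in a line was listed only through its emetine reads. Both choices favour more skipping reads with emetine, so these values are descriptions.

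Most near-constitutive exons nevertheless stayed near full inclusion. With emetine, 15545 events (74.2%) kept a level of at least 0.98 in all 4 libraries. The mean emetine level was under 0.98 for 1993 events in MCF10A and 3369 in HMLE TWIST, under 0.9 for 127 and 400, and under 0.8 for 19 and 89. It was under 0.5 for none in MCF10A and for 1 in HMLE TWIST. Over all near-constitutive events, most of them close to 1, the 95th percentile of the difference between replicates with emetine was 0.0231 in MCF10A and 0.0268 in HMLE TWIST. Exons that fell varied more, as in SLC5A6, with 0.881 and 0.656 in the MCF10A emetine libraries, and PAM, with 0.830 and 0.955 in those of HMLE TWIST. The mean level with emetine was above that of the control for 6113 events in MCF10A and 5750 in HMLE TWIST, by at most 0.0181 and 0.0183. The median change over all near-constitutive events, tested or not, was -0.0016 in MCF10A and -0.0023 in HMLE TWIST. Over all events that were listed for both lines and tested in the line, it was -0.00022 and -0.0032. Tested events had enough reads of the rarer form, which many near-constitutive events did not, so these medians cover unlike sets.

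**Figure D1:**
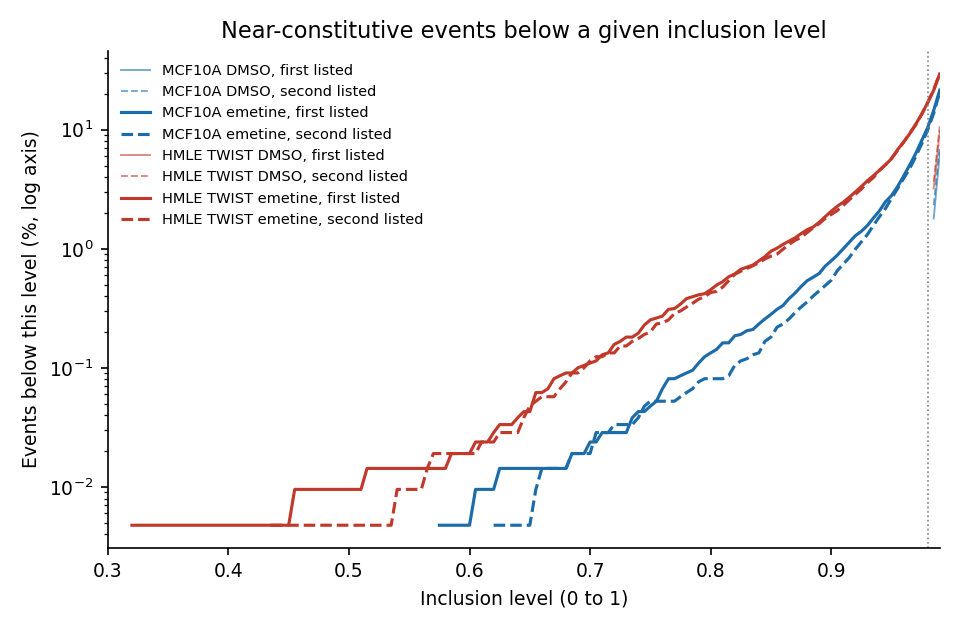
Share of the 20937 near-constitutive events (y axis, percent, log scale) with an inclusion level below the value on the x axis, with a line for each of the 8 libraries and a dotted line at 0.98. No control library has an event below 0.98, as the rule requires; 434 and 407 events lie below 0.9 in the HMLE TWIST emetine libraries, against 166 and 116 in those of MCF10A.

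An event was called where the adjusted p was under 0.05 and the mean level differed by at least 0.1. Of the near-constitutive events, 109 were called lower with emetine in MCF10A (0.521%), beside 5.48% of all 25522 events tested there. In HMLE TWIST 351 were called lower (1.68%), beside 8.32% of 30290. Nothing is read from these shares, since the rule used the control levels, and 15803 and 13383 of the near-constitutive events had too few reads of the rarer form, or in a library, to be tested. The called events came from 100 genes in MCF10A and 301 in HMLE TWIST. Both emetine levels lay below both control levels in all of these, which the called difference of 0.1 goes far to fix, and in 6684 (31.9%) and 8303 (39.7%) of all near-constitutive events. In limma on the log odds, 107 of the 109 and 350 of the 351 had an adjusted p under 0.05. Over all 20937 near-constitutive events, 1713 and 3084 did. In the authors' deposited table all 109 and 351 had a false discovery rate under 0.05, as had 1189 and 2351 near-constitutive events in all. These counts use the same reads, and the call already asked for a fall of 0.1, so they are not separate support. In both lines 78 events were called, which is 71.6% of the MCF10A calls and 22.2% of those in HMLE TWIST. Without dividing counts by effective length, which gives inclusion reads about double weight, 32 and 125 events passed the 0.1 difference.

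The 10 exons that fell furthest in both lines lay in 10 genes of differing function. In SNX4, a sorting nexin of endosomes, the level was 1 and 0.995 in the MCF10A controls and 0.758 and 0.717 with emetine, and 1 in both HMLE TWIST controls and 0.760 and 0.659 with emetine. All 4 emetine libraries were low, with falls of 0.260 for MCF10A and 0.291 for HMLE TWIST. GALNT7 adds N-acetylgalactosamine to proteins in mucin-type O-glycosylation. Its exon had levels of 0.983 and 0.988, then 0.603 and 0.682, in MCF10A. HMLE TWIST had 1 in both controls and 0.746 and 0.808 after emetine. The lower levels were those of MCF10A here, though the lines did not differ past the threshold (limma-moderated quasi-binomial adjusted p = 0.178).

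SESTD1, which holds a lipid-binding SEC14 domain and spectrin repeats, had levels of 0.995 and 0.996 in the MCF10A controls and 0.791 and 0.776 with emetine. In HMLE TWIST its level was 1 in both controls and 0.709 and 0.561 with emetine, where the replicates lay far apart and the library with fewest reads had 32. FLII, a gelsolin relative that acts on actin, had 0.995 and 0.997 in the MCF10A controls and 0.758 and 0.817 with emetine, and HMLE TWIST had 0.992 and 0.994, then 0.688 and 0.753. This was the most deeply read of the 10, with at least 2069 reads in every library, and its flanking introns have 83 bases each. CPNE1 encodes copine 1, which binds membrane lipids in the presence of calcium. Its exon had levels of 0.997 and 0.999, then 0.764 and 0.816, in MCF10A, and of 0.989 and 0.982, then 0.583 and 0.537, in HMLE TWIST. Skipping reads there numbered 4 and 2 in the MCF10A controls and 299 and 235 with emetine, and 10 and 19 against 668 and 809 in HMLE TWIST. Under emetine the HMLE TWIST level lay 0.230 below that of MCF10A (limma-moderated quasi-binomial adjusted p = 3.2e-43, limma on the log odds 0.111).

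COASY carries out the last steps of coenzyme A synthesis. The level of its exon was 0.99 and 1 in the MCF10A controls and 0.754 and 0.844 with emetine, and 1 and 0.995 against 0.717 and 0.699 in HMLE TWIST. All 4 emetine libraries lay below the controls, but the MCF10A call was 1 of the 2 that limma on the log odds did not make. ATXN2L, a relative of ataxin-2 found in stress granules, had levels of 0.986 and 0.985 in the MCF10A controls and 0.733 and 0.739 with emetine, and 0.981 and 0.986 against 0.663 and 0.676 in HMLE TWIST. Its emetine replicates lay close together in each line, and its library with fewest reads had 1634. The other 3 were in DPAGT1, which starts the lipid-linked sugar of N-glycosylation, FKBP10, a prolyl isomerase that helps fold collagen, and the locus named RP11-44M6.7. Their falls were 0.229, 0.309 and 0.206 for MCF10A and 0.288, 0.216 and 0.406 for HMLE TWIST. The last rests on 47 reads in its shallowest library.

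**Figure D2:**
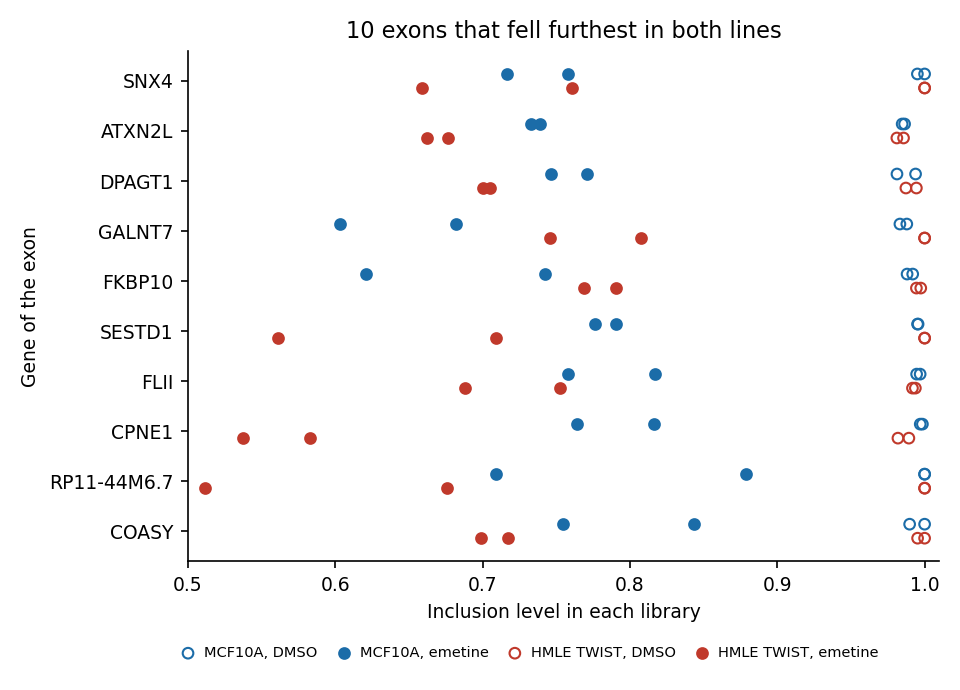
Inclusion level (x axis) in each of the 8 libraries for the 10 exons with the largest smaller fall over the lines, 1 row a gene, open circles for DMSO and filled circles for emetine. All control circles lie at 0.981 or above and all emetine circles at 0.879 or below.

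Among the furthest falls in MCF10A, LMO7 came first. LMO7 is a LIM-domain protein tied to actin and cell junctions, and this 30-base exon (chr13:76383290-76383319) keeps the frame when skipped. Its level was 1 in all 4 control libraries, 0.572 and 0.616 in MCF10A with emetine, and 0.944 and 0.945 in HMLE TWIST with emetine. Skipping reads were 0 in every control library, 102 and 86 in the MCF10A emetine libraries, and 8 and 7 in those of HMLE TWIST. FAM64A, a gene expressed in dividing cells, was the third after GALNT7: its 45-base exon had levels of 0.993 and 0.986 against 0.682 and 0.650 in MCF10A, and 0.993 and 0.989 against 0.882 and 0.904 in HMLE TWIST. Of the 19 exons under 0.8 in MCF10A, 6 had lengths that are multiples of 3, LMO7 and ATXN2L among them.

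In HMLE TWIST the furthest fall was in SLC6A6, the taurine transporter. Its 125-base exon (chr3:14509596-14509720) had levels of 1 and 0.984 in the controls and 0.319 and 0.435 with emetine, the only mean under 0.5, from 31 and 33 reads. In MCF10A the same exon had 0.996 and 0.993 in the controls and 0.953 and 1 with emetine. CLK3, a kinase that phosphorylates SR splicing factors, was next and far better covered, with 794 and 935 reads in the HMLE TWIST emetine libraries. Its 97-base exon (chr15:74914461-74914557) went from 0.98 and 0.986 to 0.450 and 0.569 in HMLE TWIST, while MCF10A showed 0.981 and 0.998 against 0.943 and 0.955. Skipping reads of CLK3 went from 13 and 9 to 304 and 260 in HMLE TWIST. SREBF1, the transcription factor of lipid synthesis, had a 133-base exon between introns of 87 and 204 bases with 0.993 and 0.982, then 0.642 and 0.654, in HMLE TWIST, and 0.998 and 0.996, then 0.852 and 0.922, in MCF10A. In MCF10A its change of -0.110 was -0.075 without the first listed emetine library, under the 0.1 threshold.

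The rule used no emetine level, and the lines were compared under emetine with a test. Emetine reads still bore on which events were listed and, through the count filter, on which were tested. HMLE TWIST was called lower than MCF10A for 155 near-constitutive events in 137 genes and higher for 8, out of 8482 with enough reads. Over all 28434 events tested in this comparison, 7.85% were called lower and 1.97% higher, against 1.83% and 0.0943% of the 8482 near-constitutive events tested, or 0.740% and 0.0382% of all 20937. The calls rest on the spread shared by all events of the quasi-binomial model. In limma on the log odds none of the 155 or the 8 had an adjusted p under 0.05, the lowest being 0.0609. An unadjusted p under 0.05 was found for 148 and all 8, and for 2569 of the 8482 near-constitutive events tested. The 155 and the 8 had been called on the same reads with a difference of 0.1, which favours a low unadjusted p. Over all near-constitutive events, both HMLE TWIST emetine levels lay below both MCF10A levels in 5950 (28.4%) and above them in 1800 (8.60%). The libraries did not overlap in any of the 155 or the 8, which a called difference of 0.1 goes far to fix. Without length correction 48 and 3 were called. The 8 became 5 without the first listed MCF10A emetine library and 14 without the second.

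The largest differences between the lines toward HMLE TWIST skipping were in SLC6A6 and CLK3. SLC6A6 stood at 0.977 ± 0.033 (SD, n = 2) in MCF10A and 0.377 ± 0.082 in HMLE TWIST, a difference of -0.600 (limma-moderated quasi-binomial adjusted p = 1.0e-05). For CLK3 the means were 0.949 ± 0.0081 and 0.509 ± 0.084 (adjusted p = 8.68e-95, limma 0.0609). CTDP1, a phosphatase of the RNA polymerase II tail, had levels of 0.988 in both MCF10A libraries and 0.679 and 0.681 in HMLE TWIST. NADK, which makes NADP, had 0.99 and 0.979 against 0.735 and 0.644. HAUS4, a subunit of augmin on the mitotic spindle, had 0.951 and 0.963 against 0.669 and 0.673. In these 3 genes the MCF10A emetine levels stayed within 0.05 of full inclusion. ASAP3, which turns off Arf GTPases, had 0.963 and 1 against 0.653 and 0.711, from 44 and 50 reads in MCF10A, and its adjusted p of 0.000476 rose to 0.058 in the quasi-binomial fit without the second listed MCF10A emetine library.

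In the other direction LMO7 differed most, at 0.594 ± 0.031 (SD, n = 2) in MCF10A and 0.944 ± 0.00067 in HMLE TWIST (limma-moderated quasi-binomial adjusted p = 2.95e-14, limma on the log odds 0.0609). FAM64A followed at 0.666 ± 0.022 and 0.893 ± 0.016. MTA1, a subunit of the NuRD chromatin complex, had a 36-base exon at 0.862 and 0.787 in MCF10A and 0.968 and 0.983 in HMLE TWIST. EXOC4, of the exocyst, had 0.828 and 0.870 against 0.994 and 1, and OXSR1, a kinase of ion cotransporters, had 0.865 and 0.881 against 1 in both. CAMK2D, a calcium-dependent kinase, had 0.760 and 0.852 against 0.912 and 0.942, and its call was lost without the first listed MCF10A emetine library (quasi-binomial adjusted p = 0.124). The remaining exons of the 8 were in DLG1, with 0.865 and 0.905 against 0.985 and 0.989, and TPP1. With 1 event per exon, 7 exons lay in this direction and 5 of them had lengths that are multiples of 3, against 19 of the 143 in the other.

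**Figure D3:**
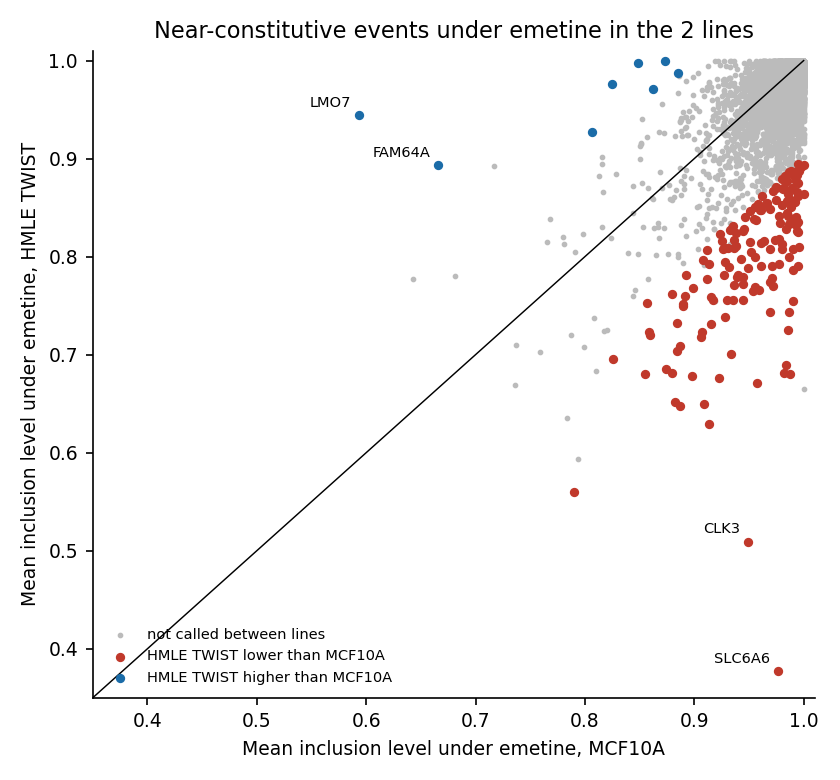
Mean inclusion level under emetine (2 libraries each) of the 20937 near-constitutive events in MCF10A (x axis) and HMLE TWIST (y axis), with the line of equal levels. Red points are the 155 events called lower in HMLE TWIST, blue points the 8 called higher, and grey points were not called or had too few reads to be tested.

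A call in a single line was not taken as a difference between the lines. Of the 273 events called in HMLE TWIST alone, 135 were called lower than MCF10A under emetine, and of the 31 called in MCF10A alone, 8 were called higher. The events called in HMLE TWIST alone had a median emetine level of 0.858 there and 0.957 in MCF10A. Those called in both lines had medians of 0.803 and 0.858.

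The rule did not ask whether a length is a multiple of 3, though length enters the level through the effective length. An exon without control skipping reads in a line was listed only through its emetine reads. With emetine, exons of other lengths had 5.16 and 4.96 skipping reads per 1000 in HMLE TWIST, against 2.37 and 2.47 at multiples of 3. MCF10A had 2.79 and 2.53 against 1.36 and 1.30. The part of listing in the shares below was not tested. Taking 1 event per exon, 34.8% of all 18089 near-constitutive exons had a length that is a multiple of 3 (95% Wilson interval 34.1 to 35.5), against 44.0% (43.1 to 44.9) of 11639 other exons with enough control reads. Among the near-constitutive exons the share differed with the emetine level. It was 39.0% (38.2 to 39.9) of the 13292 that kept 0.98 or more in every emetine library, 23.7% (22.5 to 25.0) of 4439 in between, 11.4% (8.07 to 15.9) of 254 called in HMLE TWIST alone and 9.33% (4.59 to 18.0) of 75 called in both lines. Of the 29 called in MCF10A alone it was 34.5% (19.9 to 52.7). Intervals cover counting error only, and exons of a gene share reads.

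Split by emetine level within a line, the share was lower at each lower step down to 0.90. In HMLE TWIST it was 41.3% of exons at 0.995 or above, 34.6% between 0.99 and 0.995, 28.3% between 0.98 and 0.99, 22.4% between 0.95 and 0.98, 16.2% between 0.90 and 0.95, 11.8% between 0.80 and 0.90, and 13.4% under 0.80. MCF10A showed 39.8%, 32.6%, 25.0%, 18.8%, 11.8% and 12.6% over the same steps, and 31.6% of the 19 exons under 0.80 with an interval of 15.4 to 54.0. The first 3 steps lie at 0.98 or above, where no event was called. Median control reads per library were 882 in the highest step and 457 to 548 in the others in MCF10A, and 910 against 453 to 631 in HMLE TWIST, and the part of depth was not tested.

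**Figure D4:**
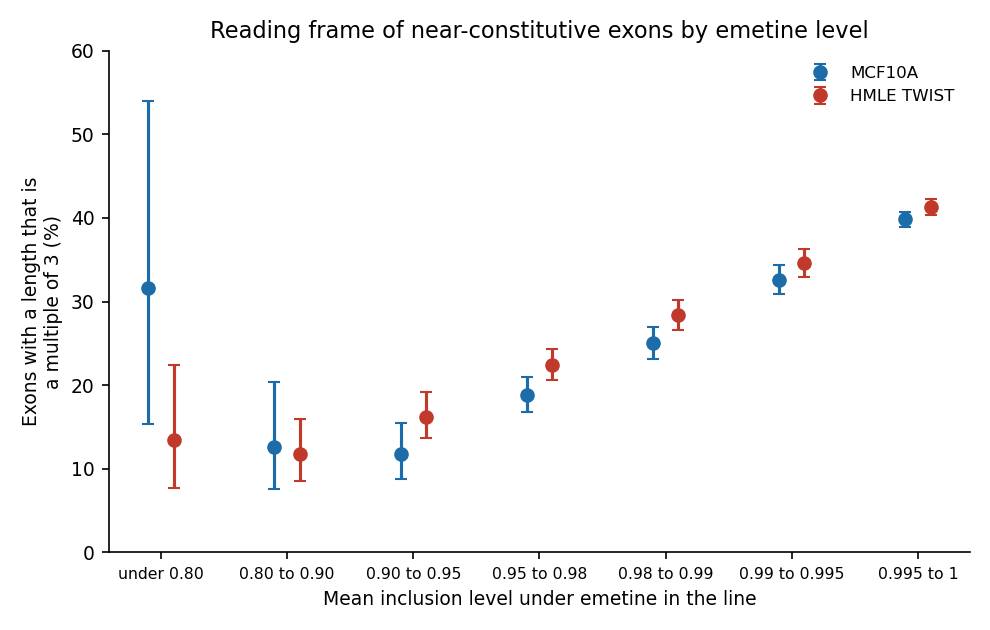
Percent of near-constitutive exons with a length that is a multiple of 3 (y axis) by mean inclusion level under emetine in the line (x axis), 1 event per exon, with 95% Wilson intervals as bars. The share runs from 41.3% in HMLE TWIST and 39.8% in MCF10A at 0.995 or above to 11.8% and 12.6% at 0.80 to 0.90, and the MCF10A point under 0.80 rests on 19 exons.

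What skipping would do to the protein was read from GENCODE 29 transcripts for 13714 exons that are coding throughout. A stop was called early where it lay more than 50 bases before the last exon junction, the position that commonly marks a transcript for decay. Skipping predicted an early stop for 58 of 62 such exons called in both lines (93.5%), 170 of 195 called in HMLE TWIST alone (87.2%) and 14 of 20 called in MCF10A alone (70.0%). It did so for 2565 of 3469 in between (73.9%) and 4991 of 9968 that kept their level (50.1%). Of the 46 called exons with a length that is a multiple of 3, 23 were coding throughout, and 22 of these kept an open frame without the exon. GENCODE 29 lists a transcript without the exon for 29 of 70 matched exons called in both lines (41.4%) and for 14.2% of those that kept their level. For 19 of the 70 (27.1%) the listed transcripts without the exon included a target of nonsense-mediated decay and none that codes for a full protein, against 2.68% of those that kept their level.

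Of the groups of coding exons described here, those with a predicted early stop had the fewest skipping reads per 1000 in the control libraries. With emetine they had the most. For the 7798 exons whose skipping predicts an early stop, skipping reads per 1000 junction reads were 0.560 and 0.604 in the MCF10A controls and 3.60 and 3.22 with emetine, and 0.801 and 0.835 against 6.75 and 6.49 in HMLE TWIST. For the 4710 exons whose skipping keeps the frame, they were 0.783 and 0.776 against 1.27 and 1.21 in MCF10A, and 1.17 and 1.15 against 2.20 and 2.33 in HMLE TWIST. The order of these groups was thus reversed between control and emetine in both lines. The same held for the mean skipping level over exons. In HMLE TWIST this was 0.230% and 0.242% in the controls and 1.92% and 1.86% with emetine for early-stop exons. For frame-keeping ones it was 0.354% and 0.356% against 0.710% and 0.743%. The rule capped control skipping, and an exon without control skipping reads in a line was listed only through its emetine reads. Both bear on the order of the groups, which is given as a description. The 1168 exons whose skipping brings a late stop, near or after the last junction, stood beside the frame-keeping ones, at 1.30 and 1.29 in the MCF10A emetine libraries and 2.14 and 2.19 in those of HMLE TWIST.

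**Figure D5:**
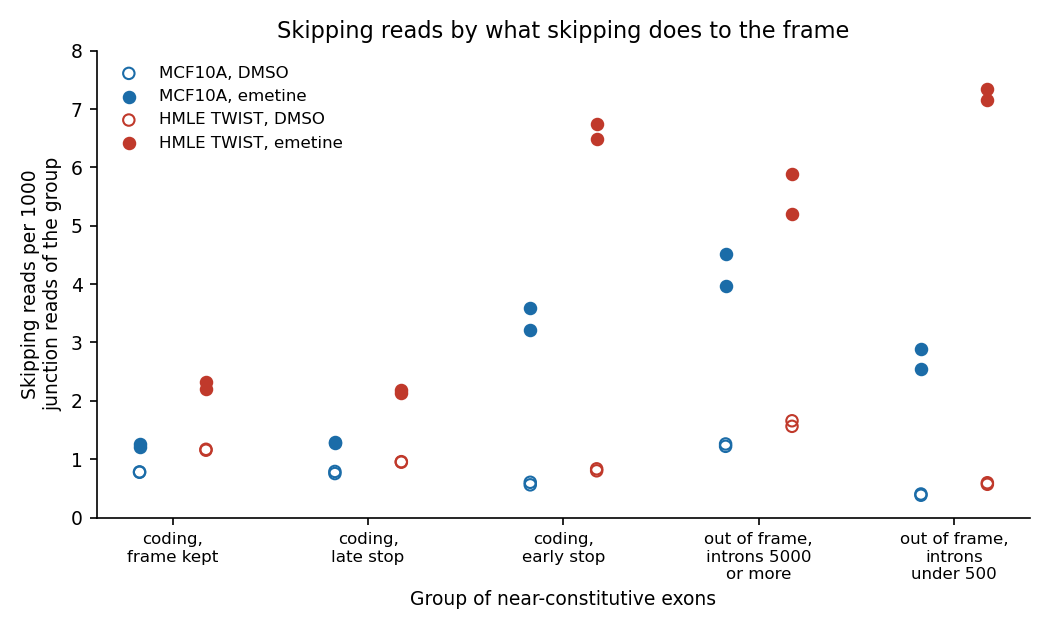
Skipping reads per 1000 junction reads (y axis) in each library for near-constitutive exons grouped by what their skipping does to the reading frame and, for exons of a length that is not a multiple of 3, by the length of both flanking introns in bases (x axis). Early-stop exons lie lowest of the 3 coding groups in the controls, whose levels the rule limited, and highest with emetine, up to 6.75 in HMLE TWIST.

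Exons called in both lines had median introns of 237 bases upstream and 356 downstream, and those called in HMLE TWIST alone 410.5 and 293, against 1974 and 1832 for exons that kept their level. Both introns were under 500 bases in 48.0%, 40.2% and 10.5% of these groups. The 29 exons called in MCF10A alone had medians of 2795 and 2724. Among exons of a length that is not a multiple of 3, those between introns under 500 bases had 0.382 and 0.404 skipping reads per 1000 in the MCF10A controls and 2.89 and 2.54 with emetine. In HMLE TWIST they had 0.596 and 0.570, then 7.34 and 7.15. Those between introns of 5000 bases or more had 1.22 and 1.26, then 4.52 and 3.97, in MCF10A, and 1.56 and 1.66, then 5.88 and 5.19, in HMLE TWIST. These sums weight exons by their reads. As a mean over exons, the skipping level with emetine was 1.54% and 1.34% at short introns and 1.11% and 1.02% at long ones in MCF10A, so the order in that line turned with the measure. The same means in HMLE TWIST were 3.19% and 3.07% at short introns and 1.39% and 1.31% at long ones, higher at short introns by either measure.

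Median GC content was 53.9% in exons called in both lines, 57.6% in those called in HMLE TWIST alone, 44.3% in those called in MCF10A alone and 48.8% in those that kept their level. A run of at least 3 G on the transcript strand (GGG) was found in 68.6%, 75.1%, 56.5% and 67.3% of these groups, and in 67.6% of all matched near-constitutive exons. The last base of the exon was G in 84.3%, 74.7%, 87.0% and 80.0%. Median exon lengths were 100, 122, 97 and 117 bases.

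Reads of the 2 forms were also followed separately. For the 75 exons called in both lines, the median number of skipping reads per library was 1.5 in the MCF10A controls and 34.5 with emetine, and 2.0 against 59.0 in HMLE TWIST. Inclusion reads of the same exons, scaled to the junction reads of the library, were at a median of 0.670 times the control in MCF10A and 0.777 times in HMLE TWIST, and under the control in 58 and 48 of the 75. For exons that kept their level the medians were 1.06 and 1.18 times. Inclusion reads of the exons called in HMLE TWIST alone stood at 1.05 times the control there.

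Gene lists were read the same way, as counts beside the 0.521% and 1.68% of all near-constitutive events. Of 185 events in 41 genes of SR proteins, hnRNPs and other splicing regulators, 3 were called lower in MCF10A and 6 in HMLE TWIST, with median changes of -0.0007 and -0.0005 and with 157 kept at 0.98 or more. Those called in both lines were in TAF15, an RNA-binding protein, and SRSF1, an SR protein that promotes exon inclusion. The TAF15 exon of 76 bases had levels of 0.993 in both MCF10A controls and 0.854 and 0.861 with emetine, and 0.998 and 0.995 against 0.765 and 0.789 in HMLE TWIST. The SRSF1 exon of 203 bases had 0.992 in both against 0.856 and 0.832, and 0.984 and 0.986 against 0.850 and 0.895. Without the first listed HMLE TWIST emetine library the SRSF1 change there was -0.090 and under the threshold. The other called SRSF1 event, of an exon of 187 bases with a shared end, uses the same skipping reads. CLK3, described above, was the third gene of this list.

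The decay machinery itself showed 1 call among 50 events of 16 genes of nonsense-mediated decay and the exon junction complex. It was in UPF2, the factor that bridges UPF1 and the junction complex, whose exon had 0.987 and 1, then 0.848 and 0.926 with emetine, in HMLE TWIST. In MCF10A the exon had 1 in both controls and 0.866 and 0.949 with emetine, a change of -0.092. Leaving out either the second listed control or the first listed emetine library ended the HMLE TWIST call. Among 161 events of 38 core spliceosome genes 1 was called, in HMLE TWIST: DDX23, a helicase of the U5 particle, had 1 in both controls and 0.874 and 0.892 with emetine.

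Translation factors had 1 call in each line among 258 events of 44 genes, and it was the same exon of PABPC4, a poly(A)-binding protein. Its levels were 0.994 and 0.991 against 0.879 and 0.850 in MCF10A and 0.989 and 0.996 against 0.790 and 0.814 in HMLE TWIST. Of 212 events of 36 DNA repair and checkpoint genes, 3 were called in HMLE TWIST and none in MCF10A, in ERCC2, FANCA and POLH. POLH, the polymerase that copies past ultraviolet damage, went from 0.994 and 0.986 to 0.818 and 0.860, and FANCA, of the Fanconi anaemia core complex, from 0.986 and 0.992 to 0.870 and 0.846. Of 223 events of 43 actin and adhesion genes, 2 were called in HMLE TWIST, in ARPC3, a subunit of the Arp2/3 complex, and TPM3, a tropomyosin. The ARPC3 exon of 19 bases had 0.986 and 0.987 against 0.828 and 0.805, and TPM3 had 0.998 and 0.997 against 0.9 and 0.868, a call that was lost without the second listed emetine library, at a change of -0.097.

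No near-constitutive event was called in either line among 228 of cytosolic ribosomal proteins (64 genes), 177 of the proteasome (37 genes), 261 of the cell cycle (55 genes) or 143 of the mitochondrial respiratory chain (30 genes). Their furthest mean changes were -0.0194, -0.0994, -0.0742 and -0.0678 in HMLE TWIST and -0.0079, -0.0443, -0.0669 and -0.0249 in MCF10A. At least 0.98 was kept in all emetine libraries by 224, 153, 214 and 130 of them. Ribosomal protein exons are read very deeply, and their share that kept the level, 98.2%, was the highest of the 10 lists.

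Among the 6 most deeply read exons that kept their level, skipping reads ranged from 0 to 360 in a library. MT2A had 5, 4, 0 and 3 skipping reads in the MCF10A libraries (controls, then emetine) and 1, 1, 4 and 7 in those of HMLE TWIST, out of at least 109844 junction reads in each. EEF1A1 had 1 to 6 skipping reads in a library. GAPDH, a glycolytic enzyme, had none in 6 of the 8 libraries, and 1 and 3 in the others, although skipping its 116-base exon predicts an early stop. TMSB10, S100A6 and S100A2 were the others of the 6. S100A2 had 234 and 325 skipping reads in the MCF10A controls and 316 and 360 with emetine, and 2 to 24 in the HMLE TWIST libraries, with levels of 0.994 to 0.999 throughout.

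Calls were spread over genes. The 382 events called in either line lie in 326 genes, of which 46 had more than 1 called exon and none had more than 4. The exons just inside the threshold of 0.98 were in MICU2, DIABLO and CTBP2, whose lowest control level was 0.98 and whose HMLE TWIST emetine levels were 0.925 and 0.942, 0.984 and 0.989, and 1 and 0.989. Just outside lay exons of CIRH1A, MTMR14 and USP34, with 0.952 and 0.959, 0.948 and 0.962, and 0.971 and 0.986.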

How the data were processed

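The members and gene lists were chosen with earlier results of these data known. Reads were aligned with STAR 2.5.3a and the build was GRCh37, per the submitters' processing notes, and libraries were stranded and paired-end per the labels' protocols. The deposited files are rMATS skipped-exon tables, 1 per line. Per the file headers they give the authors' counts of inclusion and skipping junction reads, effective lengths, p-value and false discovery rate, and an inclusion difference score. In each table the group numbered 1 was read as DMSO and group 2 as emetine, following its name. Values in a cell carry no replicate number and are called first and second listed.

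Both tables were joined on position and 6 coordinates. Inclusion and skipping counts were fitted with a quasi-binomial logistic model in R 4.3.3, with dispersion moderated by limma 3.58.1 over all events and floored at 1, a two-sided moderated F test and Benjamini-Hochberg adjustment over all events of the fit. The moderation gave all events 1 shared dispersion, 1.97 in MCF10A, 1.95 in HMLE TWIST and 2.00 between lines. Events needed at least 20 reads in every library and 10 reads of the rarer form. The model was tested on simulated data, in which the changed events were well read and lay at intermediate levels. That test does not cover events with control levels near 1. Limma on the log2 odds with 0.5 added to each count was the other model. Exons were matched to GENCODE 29 (GRCh38 annotation) by gene, exon length and both intron lengths, which 16164 of 18089 exons were; no coordinates were converted. Intron sequence was not analysed here. Of exons sharing a start or an end, several may be listed, and junction reads are shared between them.

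Named exons were, 1 event per gene, the 12 largest falls called per line, the 10 largest called in both lines by the smaller fall, the 6 largest differences called in each direction between lines, the 6 most deeply read that kept 0.98, up to 3 called in both lines per gene list (if none, up to 2 called in 1 line), and 3 on each side of the threshold. Those printed were picked from these after their values were seen. DLG1, TPP1 and ERCC2 are named outside that rule.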

Additional observations from a re-analysis of the deposited data

How the results depend on the processing

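With 2 libraries a group, the quasi-binomial calls rest on a spread shared by all events. With an event's own dispersion where that was larger, 107 events were called lower in MCF10A, 349 in HMLE TWIST and 144 between lines, with 8 higher. Depth limits what can be seen: 20 near-constitutive events had under 20 reads in some emetine library. Without length correction, 32 events were called lower in MCF10A, 125 in HMLE TWIST and 48 between lines, with 3 higher. At a difference of at least 0.05 the counts were 426, 975, 465 and 34, and at 0.2 they were 17, 83, 21 and 2. Choosing exons at a control level of 0.95 gave 279, 705, 307 and 18, and at 0.99 it gave 44, 159, 68 and 3. With at least 200 control reads 4 events were called higher between lines. Limma on the log odds called 0 lower and 0 higher between lines, the adjusted p of each being at least 0.0609. Leaving out 1 library at a time gave 83 to 132 calls in MCF10A, 344 to 365 in HMLE TWIST, and 125 to 155 lower and 5 to 14 higher between lines. The replicate block, with the first listed value taken as replicate 1, gave 109 and 351 calls, as without it; replicate differences of control and emetine correlated at 0.0633 in MCF10A and 0.0636 in HMLE TWIST over 35756 events, so the numbers were not taken as pairs. The share of called exons with a length that is a multiple of 3 left its interval only in MCF10A at a difference of 0.2, where it was 35.3% of 17.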
